A study of Trichosurus vulpecula with 116 samples.

Results

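Kidney and liver libraries of the same pouch young brushtail possums (*Trichosurus vulpecula*) were compared, pairing the tissues by the animal named in the library title. The pairing gave 5 animals and 10 of the 116 RNA-seq libraries of the series. There were 3 females, aged 10, 14 and 15 days post partum (dpp), and 2 males, aged 22 and 42 dpp, each with a different mother named in the labels. The name of the 42 dpp animal's mother is spelled in 2 ways in its kidney and liver labels, and the pair was kept because the animal's own name is the same. None carried a treatment or a genetic change, and ages had been read from a head-length nomogram. Tissue had been kept in RNAlater, and poly(A)-enriched strand-specific libraries had been made with a NEBNext kit for 4 animals and with a NEXTFLEX kit for the 22 dpp animal, for both of its tissues. Age, sex and kit therefore went with the animal and not with the tissue. The labels name the organ but not which region of it was taken. A further 3 animals were left out, 2 because their labels conflict and 1 because the study had removed its liver library. Kidneys without a usable liver of the same animal, at 41, 46 and 62 dpp, entered no paired test, and their levels are given beside those of the pairs. The 41 dpp kidney is that of the animal with the removed liver.

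A marsupial is born with an immature kidney, and new nephrons go on forming at the rim of the organ while the young is in the pouch. There, progenitor cells of the cap mesenchyme receive signals from the branching ureteric bud, form vesicles and mature into podocytes, proximal tubule, loop of Henle and distal tubule, while the bud becomes the collecting duct. The liver at this age makes plasma proteins, clotting factors and bile acids, disposes of ammonia through the urea cycle, and also houses the red cell precursors that later move to the bone marrow. Liver and kidney share part of their metabolism, since both release glucose and break down amino acids, and they pass hormones and their precursors to each other.

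A level below is given in log2 CPM, counts scaled to the same library total on a log2 scale. It was not divided by gene length, so that levels were compared between libraries and not between genes. Per-animal values follow the order 10, 14, 15, 22 and 42 dpp. The difference is kidney minus liver on the log2 scale with its SE over the 5 animals, from limma with the animal as a block. A gene was called where the Benjamini-Hochberg adjusted p over all genes tested was under 0.05 and the difference was at least 1 in size. Where every library of the lower tissue held 3 reads or fewer, the fold was instead taken from the reads pooled over the 5 libraries of each tissue. That fold was set against 3 reads for the whole tissue where there were none, or given an exact binomial 95% interval that covers counting error only. Pooling weights the libraries by depth. A gene was tested where at least 5 of the 10 libraries reached a level of 0, so a gene read in 1 tissue alone could pass through that tissue only. Counts over tested members of a group are therefore descriptions, to be read beside the 37.3% of all genes called higher and the 10.5% called lower in the kidney. Each tissue was sequenced as a bulk sample, in which fewer cells of a type and less RNA per cell cannot be told apart.

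Reads on genes ranged from 4424210 to 31393983 in the kidneys and from 6802311 to 28076869 in the livers, and a gene without reads stood between -5.31 and -2.68 depending on depth. All 10 kidney epithelium markers had reads in every kidney, with 1631 to 7235 summed CPM against 0.818 to 3.42 in the livers. The 9 hepatocyte markers reached 77550 to 125100 summed CPM in the livers. In the kidneys they came to 760.8, 83.8, 167.2, 511.5 and 2501 CPM, so the 10 and 42 dpp kidneys held the most. In the other paired kidneys most of the sum came from *APOB*, which varied less over the kidneys than the other markers. The median hepatocyte marker stood at 0.558, 0.00866, 0.0198, 0.101 and 1.95% of its level in the liver of the same animal. Adrenal markers summed to 50.0 CPM over 7 of the 8 genes in the 10 dpp kidney. The sum was 2.60 to 9.42 in the other paired kidneys and 0.352 to 13.6 in the livers. *PNMT*, the enzyme of adrenaline synthesis, was read in the 10 dpp kidney alone of the 10 libraries. Of 2 adrenal markers tested, 1 was called higher in the kidney (37.3% of all genes), by 4.17, with every kidney above every liver. A pair of annotated ribosomal RNA genes, LOC118833213 and LOC118840599, named after their values were seen, held 5.66% of gene reads in the 15 dpp kidney and 12.7% in the 42 dpp kidney, against 0.23 to 0.842% in the other paired libraries. Transcripts of the mitochondrial genome took 3.26 to 16.02% in the kidneys and 3.11 to 9.87% in the livers, highest at 22 dpp in both.

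Kidney and liver differed in a large share of all genes. The kidney level was the higher in 5303 of the 14208 genes that could be tested (37.3%) and the lower in 1491 (10.5%), while the other 7414 were not called. In 4345 genes (30.6%) every kidney lay above every liver, and in 1057 genes (7.44%) every liver lay above every kidney. The excess of higher genes depended on the scale. The median difference over all genes was 0.72, and it was 0.70, 0.54, 0.62, 0.95 and 0.84 in the 5 animals. The 10 most read genes took 25.4 to 30.7% of gene reads in the livers and 6.77 to 16.7% in the kidneys. When each library was shifted to bring the median difference to 0, 2548 genes (17.9%) were higher and 2451 (17.3%) lower, which changed the share of higher genes among those called from 78.1 to 51.0%. All 1491 lower calls were made again on that scale, and 2548 of the 5303 higher calls were. The shift lowered every difference by the same amount. No gene could therefore be called the other way, and negative differences could only grow in size. In the 4 NEBNext animals alone the counts were 5157 higher and 1559 lower. Counts for gene groups below are therefore given on the deposited scale, and on the scale with the median at 0 where they differ.

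**Figure D1:**
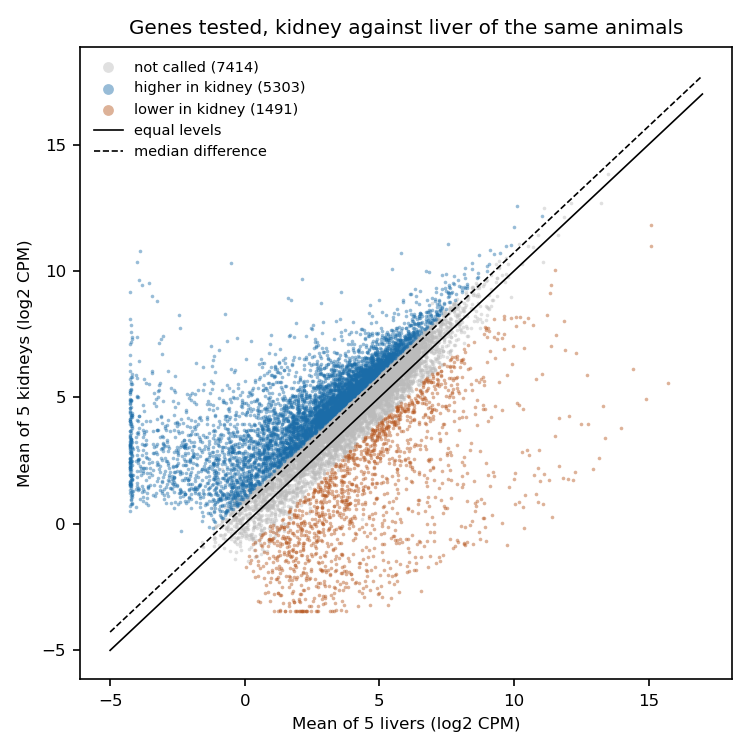
Mean level of each of the 14208 genes tested in the 5 livers (x axis) and the 5 kidneys (y axis), both in log2 CPM, with genes called higher in kidney in blue and lower in brown. Most points lie along a line that is shifted from equality by the median difference of 0.72, and separate arms of genes lie near the axis of no reads in one of the tissues.

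The largest differences towards the kidney were genes with almost no reads in the liver. *CALB1* encodes calbindin, a calcium-binding protein of the distal tubule. It stood at 11.21, 10.49, 10.83, 10.18 and 8.998 in the kidneys, with 1, 0, 2, 0 and 0 reads in the livers, and the pooled reads gave 45018-fold higher in the kidney (95% interval 15404 to 218300). The level was lowest in the 42 dpp kidney, and in the unpaired kidneys it was lower still, at 8.11, 8.63 and 7.68. *S100G* encodes a smaller vitamin D-dependent calcium-binding protein and lies within the annotated *CTPS2* on the opposite strand. Its levels were 8.96, 10.63, 10.03, 7.74 and 8.43 in the kidneys and no read was found in any liver, which made it at least 15635-fold higher in the kidney. *TMEM174*, a transmembrane protein gene, stood at 9.28, 8.97, 9.05, 8.76 and 8.11 with 1, 4, 0, 6 and 0 reads in the livers, a difference of 12.09 ± 0.44 (SE; limma adjusted p = 4.18e-06). *CDH16*, encoding kidney-specific cadherin, was the steadiest of these genes, with 9.07, 8.90, 8.79, 9.14 and 9.11 in the kidneys and 3, 1, 0, 4 and 0 reads in the livers, and its difference was 12.45 ± 0.26 (SE; limma adjusted p = 1.91e-06).

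A further 4 of the 10 largest differences belonged to protein-coding loci without a gene name. LOC118842264 (chromosome 3, 154997710 to 155037401, minus strand) had 11.31, 10.75, 11.04, 10.74 and 10.06 in the kidneys and 3, 0, 1, 0 and 0 reads in the livers, and it was 44280-fold higher in the kidney (95% interval 17294 to 162520). LOC118842265 lies 81.4 kb away on the same strand with 1 annotated gene between them, and it followed with 9.94, 9.01, 10.27, 9.53 and 8.40 against 2, 0, 2, 0 and 0 reads. Both stayed high in the unpaired kidneys, at 10.13, 10.75 and 9.87 and at 7.72, 9.12 and 8.97. LOC118834606 (chromosome 1, 550884757 to 550919977, minus strand) lies 162.4 kb from *UMOD* with 2 annotated genes between, had 8.86, 7.23, 8.89, 9.29 and 6.25 in the kidneys and was read in no liver. LOC118840443 (chromosome 2, 131131953 to 131137863, minus strand) stood at 10.32, 10.13, 10.35, 8.35 and 8.45, lower at 22 and 42 dpp than at the 3 younger ages, with 2, 4, 1, 0 and 0 reads in the livers. Coordinates refer to the possum assembly mTriVul1.

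Genes of the nephron-forming zone stood far above the liver in the kidney. Of the 12 listed genes of nephron progenitors, all were matched, 7 were tested and 6 were higher in the kidney, with a median difference of 5.97 against 0.72 over all genes and a background of 37.3% called higher. *SALL1*, a zinc-finger factor that maintains progenitors, stood at 5.65, 4.78, 5.14, 6.91 and 4.92 in the kidneys and -4.68, -4.66, -3.88, -1.44 and -1.29 in the livers, a difference of 8.67 ± 0.54 (SE; limma adjusted p = 1.84e-05). *EYA1*, a coactivator in cap mesenchyme, stood at 2.49, 4.52, 2.87, 3.85 and 3.52 against -1.95, -2.92, -2.72, -2.31 and -3.03 and differed by 6.04 ± 0.41 (SE; limma adjusted p = 2.5e-05). For both genes every kidney lay above every liver, and the 22 dpp kidney was highest for *SALL1*. *WT1*, needed first in progenitors and later in podocytes, stood at 4.56, 5.56, 4.46, 6.21 and 6.08 against -1.07, -0.70, -1.72, 0.59 and -0.07, a difference of 5.97 ± 0.19 (SE; limma adjusted p = 3.62e-06). The unpaired kidneys lay above every paired one for *WT1*, at 7.05, 6.86 and 7.64.

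*GDNF*, the ligand that progenitors send to the ureteric bud, stood at 0.89, 1.45, 1.37, 2.85 and 1.28 in the kidneys and had no read in any liver, which made it at least 159-fold higher in the kidney. *SIX2*, the factor most used to define the progenitors, fell under the filter on low values with 5, 2, 2, 69 and 4 reads in the kidneys, yet no liver held a read and the unpaired kidneys held 4, 10 and 8. *MEOX1*, a homeobox factor, had 47, 20, 14, 279 and 36 reads in the kidneys and 1 in all livers, and was 581-fold higher in the kidney (95% interval 104 to 23009). *CITED1*, another progenitor marker of placental mammals, had no read in any of the 10 libraries. *CRYM* was the tested gene that was not called, with overlapping tissues and a difference of 0.23 ± 0.49 (SE; limma adjusted p = 0.694). *ITGA8*, a receptor for the matrix around the bud, was higher by 3.05 ± 0.23 (SE; limma adjusted p = 3.71e-05). *OSR1*, *MEOX2* and *TMEM100* were too low to test, and *TMEM100* had 88, 5, 42, 487 and 10 reads in the kidneys against 1, 6, 5, 13 and 5 in the livers.

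The receiving side of that exchange was present as well. Of 16 listed genes of the ureteric bud and of vesicle formation, 15 were matched and 13 tested. All 13 were higher in the kidney (37.3% of all genes), with a median difference of 5.20. With the median at 0, 12 remained so (17.9% of all genes), and *GATA2* fell to 0.77. *RET*, the receptor of GDNF on the bud tip, stood at 1.89, 2.17, 2.64, 3.71 and 2.38 with 2, 10, 6, 6 and 0 reads in the livers, a difference of 4.80 ± 0.42 (SE; limma adjusted p = 7.5e-05). *GFRA1*, its co-receptor, stood at 7.65, 7.38, 7.12, 8.65 and 7.65 against 2.44, 2.82, 1.41, 3.31 and 2.48, a difference of 5.20 ± 0.21 (SE; limma adjusted p = 5.49e-06). Neither gene overlapped between tissues, and the 22 dpp kidney was the highest for both. *PAX2*, a factor of both bud and vesicle, stood at 5.29, 6.09, 5.02, 6.39 and 6.18 in the kidneys with 1, 0, 0, 0 and 0 reads in the livers, and was 6605-fold higher in the kidney (95% interval 1185 to 260930). *LHX1*, which acts in the vesicle, stood at 5.13, 5.05, 4.77, 6.18 and 5.34 and had no liver read, which made it at least 1763-fold higher in the kidney. *GATA3* of the bud and collecting duct stood at 4.93, 5.29, 4.42, 6.57 and 5.03 with 5, 0, 0, 6 and 0 reads in the livers and differed by 8.47 ± 0.38 (SE; limma adjusted p = 6.76e-06). *WNT4*, the signal that drives vesicle formation, stood at 1.78, 2.41, 1.53, 2.88 and 2.43 with 2, 1, 0, 3 and 0 reads in the livers. *WNT9B* and *FGF8* were too low to test, and both had reads in all 5 kidneys and in no liver.

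**Figure D2:**
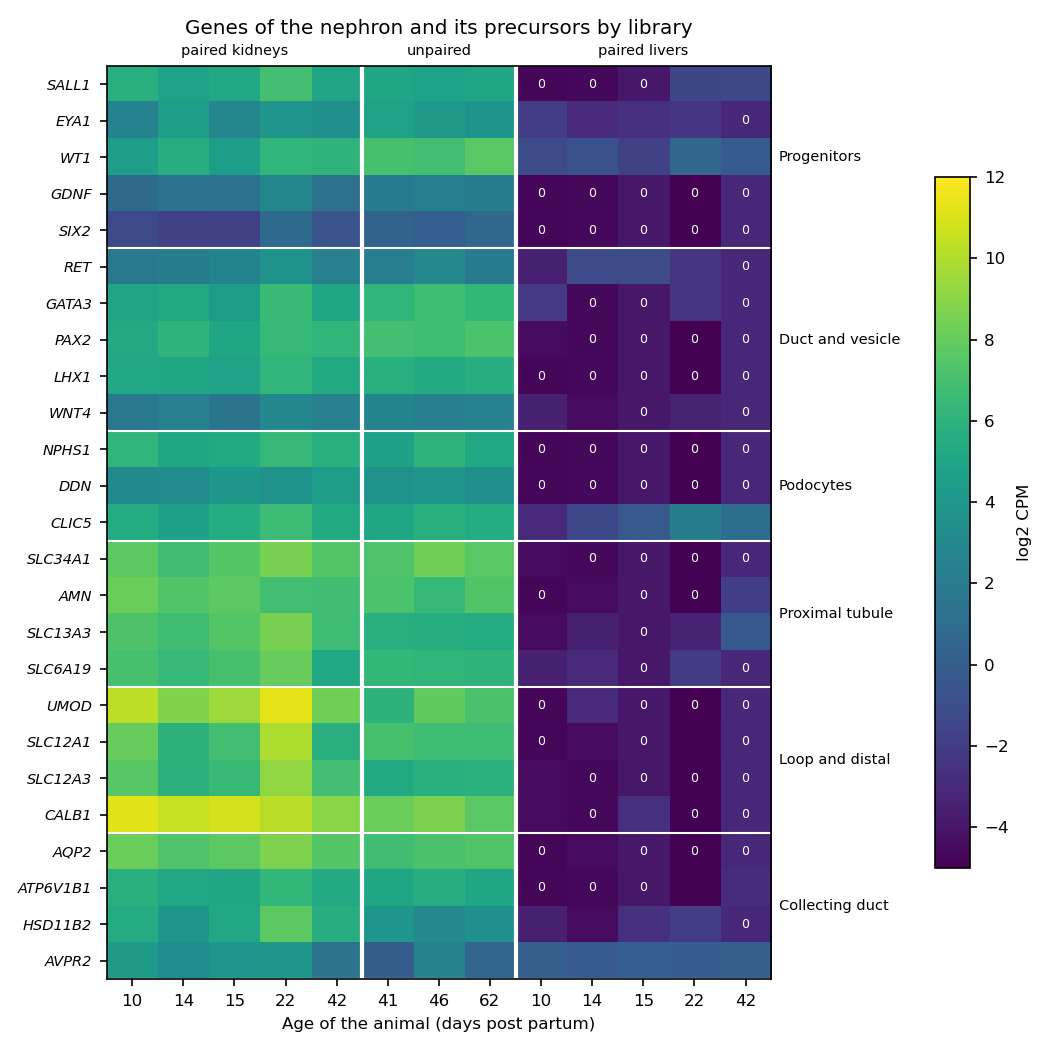
Level (colour, log2 CPM) of 25 genes of nephron progenitors, duct and vesicle, podocytes, proximal tubule, loop and distal tubule, and collecting duct in the 5 paired kidneys, the 3 unpaired kidneys and the 5 paired livers, by age in dpp; 0 marks a library without a read of the gene. The livers are dark in nearly every row, while *UMOD* and *SLC12A1* are brightest in the 22 dpp kidney and *CALB1* in the 10 dpp kidney.

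Podocytes, whose foot processes form the filter of the glomerulus, were represented by 10 matched genes of 12 listed. Of these 10 genes, 9 were higher in the kidney (37.3% of all genes), or 8 with the median at 0 (17.9%). Their median difference was 4.38. *NPHS1*, encoding nephrin of the slit diaphragm, stood at 6.20, 5.001, 5.35, 6.30 and 5.81 in the kidneys. It had no read in any liver, so that nephrin transcripts were at least 2168-fold higher in the kidney. *DDN*, encoding the podocyte protein dendrin, likewise had no liver read and stood at 3.09, 3.20, 4.04, 3.76 and 4.35. *CLIC5*, a chloride intracellular channel gene of foot processes, was read in both tissues, at 5.49, 4.70, 5.54, 6.68 and 5.31 against -2.95, -1.34, -0.26, 2.19 and 1.13, with a difference of 5.79 ± 0.58 (SE; limma adjusted p = 0.000145). *SYNPO*, encoding synaptopodin, was called on the deposited scale only, at 1.28 against 0.55 with the median at 0.

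Transporters of the proximal tubule, which recovers phosphate, glucose, amino acids and filtered protein, were higher for 14 of the 15 genes tested of 20 listed (37.3% of all genes), with a median difference of 8.47. *SLC34A1*, the sodium-phosphate cotransporter, stood at 7.74, 6.81, 7.54, 8.50 and 7.42 in the kidneys with 1, 0, 0, 0 and 0 reads in the livers. *AMN*, which anchors the receptor for filtered protein and vitamin B12, stood at 8.12, 7.37, 7.72, 6.86 and 6.82 with 0, 1, 0, 0 and 2 reads in the livers. The first was 26772-fold higher in the kidney (95% interval 4804 to 1057500), and the second was 5067-fold higher in the kidney (95% interval 1734 to 24576). *SLC6A19*, the main carrier of neutral amino acids, stood at 7.06, 6.39, 7.05, 8.02 and 5.17 with 2, 3, 0, 7 and 0 reads in the livers, a difference of 9.83 ± 0.40 (SE; limma adjusted p = 5.49e-06) with the 42 dpp kidney lowest. *SLC13A3*, a dicarboxylate carrier, stood at 7.23, 6.70, 7.46, 8.50 and 6.71 with 1, 2, 0, 3 and 6 reads in the livers and differed by 10.42 ± 0.69 (SE; limma adjusted p = 2.41e-05). The protein receptor *LRP2* stood at 8.18, 7.47, 7.94, 10.51 and 7.39 in the kidneys, highest at 22 dpp, and differed by 9.04 ± 0.29 (SE; limma adjusted p = 3.62e-06). *AQP1*, a water channel of proximal tubule and also of vessels, red cells and bile ducts, was the exception, at 7.48, 6.55, 7.46, 6.75 and 7.12 in the kidneys against 8.38, 8.01, 8.68, 6.76 and 5.85 in the livers. Its tissues overlapped and it was not called on the deposited scale, at -0.46, whereas with the median at 0 it was called lower in the kidney, at -1.20.

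In the loop of Henle and distal tubule all 8 tested genes of 13 listed were higher in the kidney (37.3% of all genes), with a median difference of 10.89, the largest of the nephron groups. *UMOD*, which encodes uromodulin of the thick ascending limb, stood at 10.30, 8.79, 9.50, 11.32 and 8.33 in the kidneys and had 0, 3, 0, 0 and 0 reads in the livers. *SLC12A1*, the loop's sodium-potassium-chloride cotransporter, stood at 8.07, 6.01, 6.83, 9.90 and 5.75, with 0, 1, 0, 1 and 0 reads in the livers. Both were highest at 22 dpp and lowest at 42 dpp, and over the kidneys *UMOD* spanned 2.99 and *SLC12A1* 4.15 log2 units. *SLC12A3*, the sodium-chloride cotransporter of the distal tubule, stood at 7.57, 5.95, 6.45, 9.18 and 6.91 with 1, 0, 0, 0 and 0 reads in the livers and was also highest at 22 dpp. Pooled reads gave 56101-fold higher in the kidney (95% interval 19196 to 272040) for *UMOD*, 28233-fold higher in the kidney (95% interval 7815 to 233140) for *SLC12A1* and 35853-fold higher in the kidney (95% interval 6434 to 1416200) for *SLC12A3*. Of the 4 genes too low to test, *KCNJ1*, the potassium channel of the same segments, had 149, 1, 24, 1407 and 0 reads in the kidneys, none in a liver and none in an unpaired kidney. *EGF*, the growth factor precursor of the distal tubule, had 45, 15, 4, 1529 and 30 reads in the kidneys against 3, 2, 1, 15 and 0 in the livers. The 22 dpp kidney was the deepest library and the paired kidney made with another kit, so its age, kit and animal cannot be told apart.

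Collecting duct genes were higher in the kidney for all 13 genes tested of 14 listed (37.3% of all genes), with a median difference of 6.44. With the median at 0, 12 were higher (17.9% of all genes). *AQP2*, the water channel inserted under vasopressin, stood at 8.16, 7.31, 7.72, 8.69 and 7.53 in the kidneys with 0, 1, 0, 0 and 0 reads in the livers, and was 31497-fold higher in the kidney (95% interval 5653 to 1244100). *AVPR2*, the vasopressin receptor, stood at 4.19, 3.25, 3.94, 4.001 and 1.56 against 0.17, -0.12, 0.08, -0.09 and 0.13, a difference of 3.35 ± 0.40 (SE; limma adjusted p = 0.000338). The livers were level for *AVPR2*, and the 42 dpp kidney was the lowest paired one. The unpaired kidneys stood at -0.02, 2.62 and 0.56. *HSD11B2*, which protects the aldosterone receptor from glucocorticoids, stood at 5.43, 3.98, 5.10, 7.73 and 5.56 with 2, 1, 2, 8 and 0 reads in the livers, a difference of 8.70 ± 0.27 (SE; limma adjusted p = 3.62e-06). *ATP6V1B1*, a proton pump subunit of intercalated cells, stood at 5.82, 5.18, 5.08, 6.28 and 5.37 with 0, 0, 0, 1 and 1 reads in the livers. *SLC26A4*, the anion exchanger pendrin, overlapped between tissues and was called on the deposited scale only, at 1.33 against 0.59.

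Stromal and vascular genes of the kidney separated the tissues less. Of 13 listed, 12 were matched and 10 tested, and 8 were higher in the kidney (37.3% of all genes), 7 with the median at 0 (17.9% of all genes), with a median difference of 2.75. *ALDH1A2*, the retinoic acid-making enzyme, differed by 4.19 ± 0.47 (SE; limma adjusted p = 0.000237), and the homeobox genes *MEIS2* and *MEIS1* by 4.10 ± 0.32 (SE; limma adjusted p = 4.77e-05) and by 3.42 ± 0.20 (SE; limma adjusted p = 1.42e-05). *DCN* and *LUM*, matrix proteoglycans of fibroblasts in general, were not called, at 0.57 ± 0.30 (SE; limma adjusted p = 0.129) and at -0.15 ± 0.98 (SE; limma adjusted p = 0.896). *FOXD1*, the factor of the outer stroma, was too low to test, with 22, 3, 26, 188 and 9 reads in the kidneys, none in a liver, and 0, 0 and 1 in the unpaired kidneys.

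HOX genes, homeobox genes in 4 clusters that mark position along the body axis, separated the tissues by their place in the cluster. All 39 were matched, 20 were tested and 19 were higher in the kidney against 37.3% of all genes, with a median difference of 6.99. With the median at 0, 18 were higher, against 17.9% of all genes. No liver held a read of 26 of the 39. Of the 15 genes of paralogue groups 6 to 10, all had reads in every kidney and 14 were called higher, while 3 had any read in a liver, 14 reads in all. Liver reads lay towards the front of the clusters, with 247 over the 8 genes of groups 1 to 3, of which 5 were read, and 271 over the 7 genes of groups 4 and 5, of which 5 were read. The 9 genes of groups 11 to 13 had none in the liver, and in the kidney only *HOXA11* and *HOXD11* were read in all 5 animals.

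Pooled reads were unequal between clusters as well, though they are not divided by gene length and are weighted towards the deep 22 dpp kidney. The 9 *HOXD* genes had 13863 reads over the kidneys and none over the livers, whereas the 11 *HOXA* genes had 5768 and 327. *HOXD9* stood at 6.40, 6.57, 6.28, 5.76 and 6.63 in the kidneys, which made it at least 2230-fold higher in the kidney. *HOXD3* stood at 4.93, 4.20, 4.59, 5.70 and 5.07 and *HOXD4* at 4.82, 4.09, 4.30, 5.20 and 4.53, and *HOXD8* at 4.14, 3.45, 3.62, 6.23 and 2.996 with the 22 dpp kidney apart from the others. These 4 had the largest differences of the list. *HOXA5* had the most liver reads of the 39, and stood at 1.08, 1.25, 1.23, 0.80 and 0.45 in the livers, with the kidneys at 3.78, 3.84, 3.57, 2.93 and 4.04 and a difference of 2.67 ± 0.25 (SE; limma adjusted p = 9.8e-05). *HOXB2* was tested and not called, at 2.92, -2.64, 1.98, 3.71 and 0.47 in the kidneys, where the 14 dpp animal was far below the others, against 0.90, 0.30, 0.18, 0.27 and -0.07 in the livers. The 14 dpp kidney was also the lowest kidney for *HOXD11*, with 69, 2, 36, 302 and 24 reads, and for *HOXB3*, with 60, 1, 19, 838 and 13, both under the filter.

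**Figure D3:**
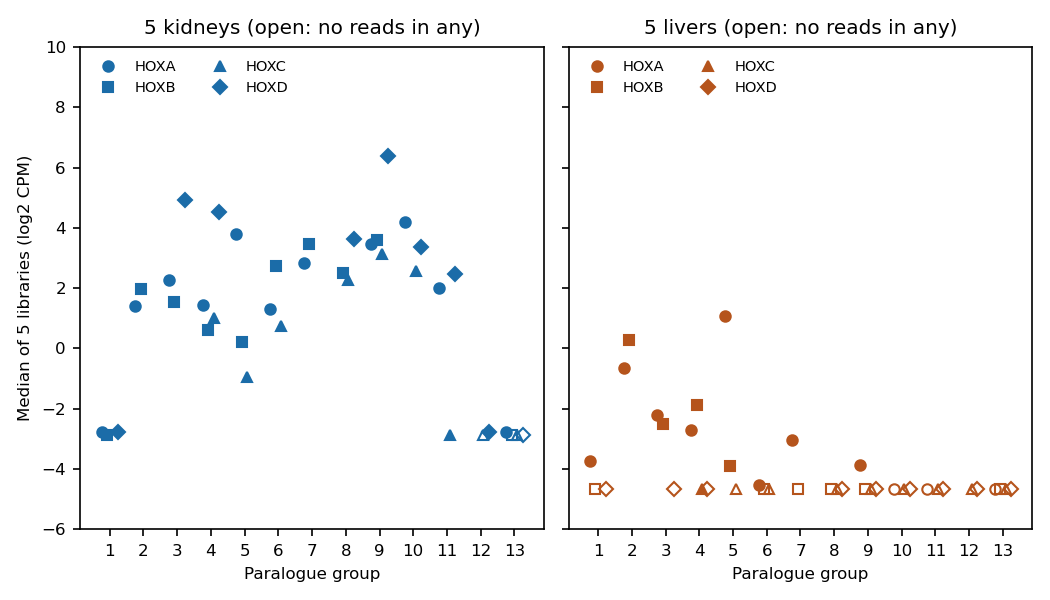
Median level over the 5 paired kidneys (left) and the 5 paired livers (right) of the 39 HOX genes, in log2 CPM, by paralogue group (x axis) and cluster (symbol); open symbols mark genes without a read in any library of the tissue. Kidney medians lie above 0 for all genes of groups 6 to 10, whereas liver medians lie above 0 for *HOXA5* and *HOXB2* and no liver read lies beyond group 9.

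Transcription factors listed for the 2 organs were higher and lower in equal number, with 10 of 25 higher and 10 lower in the kidney on the deposited scale, and 12 lower with the median at 0. On the deposited scale the higher share is close to that of all genes, 37.3%, while 10.5% of all genes were lower. With the median at 0 the same 10 were higher, against 17.9% of all genes, and 17.3% of all genes were lower. *EMX1*, *POU3F3*, *SIM1* and *IRX1*, homeobox and bHLH factors of nephron segments, had the largest differences towards the kidney, and none had a read in any liver. *EMX1* stood at 5.06, 3.95, 5.17, 5.94 and 5.55 in the kidneys and was at least 1549-fold higher in the kidney. *POU3F3* stood at 4.83, 2.82, 4.63, 6.04 and 4.60, lowest at 14 dpp, and was at least 1479-fold higher in the kidney. *IRX1* was steadier, at 4.66, 3.74, 3.81, 4.32 and 4.17, and was at least 626-fold higher in the kidney. *SIM1* stood at 3.51, 5.45, 3.60, 4.54 and 5.15 and was higher in the unpaired kidneys than in any paired one, at 6.73, 6.78 and 7.07.

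The FOXA factors, which open liver enhancers, led the liver side. *FOXA1* had 0, 0, 0, 2 and 0 reads in the kidneys and stood at 2.58, 2.11, 2.03, 3.50 and 1.77 in the livers, where the pooled reads were 222-fold higher in the liver (95% interval 61.4 to 1841). *FOXA2* stood at 1.62, -2.79, -1.72, 0.89 and 0.28 against 5.56, 5.09, 4.84, 5.13 and 5.32, a difference of -5.53 ± 0.58 (SE; limma adjusted p = 0.00017). *FOXA3* was read in every kidney, at 2.05, 1.45, 2.24, 2.17 and 2.43 against 5.82, 5.36, 5.62, 5.39 and 6.14, a difference of -3.60 ± 0.19 (SE; limma adjusted p = 9.56e-06). The other genes called lower were *ONECUT1* (-5.34), *NR5A2* (-3.53), *PROX1* (-2.77), *CEBPA* (-2.45), *NR1I2* (-2.31), *NR1I3* (-2.16) and the bile acid receptor *NR1H4* (-2.11). *HNF4A*, a factor that both organs use, was not called, at 6.36, 5.71, 6.39, 6.98 and 5.49 in the kidneys and 6.43, 5.89, 5.92, 6.71 and 6.24 in the livers. *PPARA*, *CEBPB* and *NR1H3* were not called either, at -0.53, -0.51 and -0.26, and the first 2 were called lower with the median at 0, at -1.27 and -1.25.

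Secreted liver proteins were lower in the kidney for 49 of 51 genes tested. All 17 genes tested of 23 listed for plasma proteins and carriers were called lower, as were all 19 of coagulation and fibrinolysis and 13 of the 15 tested of 17 listed for complement, against 10.5% of all genes. Their median differences were -9.25, -7.87 and -5.51. *FGA*, encoding the fibrinogen alpha chain, stood at 13.82, 14.04, 13.84, 13.89 and 14.27 in the livers and at 6.33, -1.64, 1.74, 3.93 and 8.69 in the kidneys. *AHSG*, encoding the fetal plasma protein fetuin-A, stood at 14.78, 14.73, 14.35, 14.92 and 15.78 in the livers and at 7.95, 0.17, 1.74, 4.72 and 10.07 in the kidneys. The livers lay far closer together than the kidneys, and the 14 dpp kidney was lowest and the 42 dpp kidney highest for both. *APOH* differed by -10.56 ± 1.36 (SE; limma adjusted p = 0.000461), *SERPINA1* by -10.46 ± 1.28 (SE; limma adjusted p = 0.000364), *TTR* by -10.25 ± 1.20 (SE; limma adjusted p = 0.000287) and *ITIH3* by -10.76 ± 1.49 (SE; limma adjusted p = 0.000662). These 4 SEs were each larger than any SE given above for a nephron gene.

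The spread followed the animal. The median of the 51 secreted-protein genes tested stood at 1.20, 0.153, 0.159, 0.216 and 2.37% of the liver level in the 5 kidneys. The order of libraries is that of the hepatocyte markers given above. All of those markers but *CPS1* are among the 51 genes, so the orders do not come from separate genes. In 25 of the 51 genes the kidneys spanned more than 5 log2 units. With the 10 and 42 dpp animals left out, all 17 plasma protein genes and all 19 coagulation genes were again lower, at medians of -11.02 and -8.77, and 13 complement genes at -5.83. Whether liver RNA in those kidney samples had a part in the levels was not tested. In the unpaired kidneys the hepatocyte markers came to 64.2 to 126.4 summed CPM, with *APOB* among them at 5.92 or more in each.

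A smaller group of these genes, singled out after the values were seen, was read in every paired kidney over a narrower range. It holds the 12 of 51 genes whose 5 kidneys spanned less than 3 log2 units with the lowest at 2 or more. Alpha-fetoprotein (*AFP*, LOC118852573), the main albumin-like protein of fetal plasma, stood at 11.85, 10.71, 11.52, 11.26 and 9.64 in the kidneys, at 8.22, 9.41 and 8.67 in the unpaired ones and at 15.24, 15.25, 14.89, 15.17 and 14.86 in the livers. Its difference was -4.09 ± 0.31 (SE; limma adjusted p = 3.98e-05). Every liver lay above every kidney, yet the 14 and 15 dpp kidneys, with the least *AHSG*, lay within the range of the others. *APOB*, the structural protein of lipoproteins, stood at 7.81, 6.17, 7.14, 8.72 and 7.52, and *KNG1*, the kinin precursor, at 6.19, 4.83, 4.90, 6.53 and 6.17. *CFI*, which cleaves activated complement, stood at 4.60, 4.50, 4.59, 4.78 and 4.97, within 0.47 log2 units, and *C8A* of the membrane attack complex at 5.45, 5.02, 5.24, 4.38 and 4.47. Prothrombin (*F2*) stood at 5.63, 5.34, 5.45, 5.14 and 6.58 in the kidneys and 9.44, 9.23, 8.74, 9.45 and 10.40 in the livers. *RBP4*, *PROS1*, *C1S*, *C1R*, *C7* and *C4BPA* complete the group. The unpaired kidneys reached below the lowest paired kidney for all members but *KNG1*, *C7* and *C1R*, down to 2.45 for *CFI* and 1.57 for *C4BPA*. *C7* and *C4BPA* were the complement genes not called, with *C7* at 6.30, 6.25, 6.50, 5.70 and 6.40 in the kidneys against 5.27, 5.94, 6.12, 5.54 and 5.13 in the livers.

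**Figure D4:**
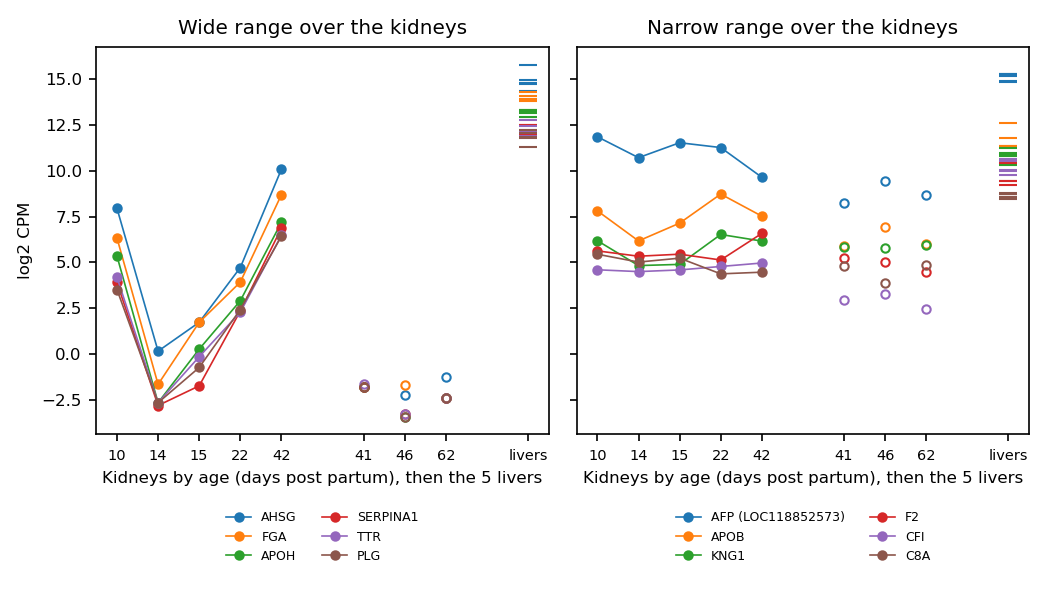
Level (log2 CPM) of 6 secreted liver proteins with a wide range over the paired kidneys (left) and 6 with a narrow one (right) in the paired kidneys (filled, joined), the unpaired kidneys (open) and the 5 livers (bars). Among the paired kidneys each gene on the left is lowest at 14 dpp and highest at 42 dpp, whereas on the right *AFP* stays between 9.64 and 11.85.

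Nitrogen disposal differed by enzyme. Of 13 genes, 8 were lower (10.5% of all genes) and 2 higher (37.3%) in the kidney on both scales, with a median difference of -2.05. With the median at 0 the shares of all genes were 17.3% lower and 17.9% higher. *CPS1*, which starts the urea cycle, stood at 4.41, -0.64, -2.87, 2.76 and 5.25 against 11.98, 12.28, 11.90, 12.997 and 10.93, a difference of -10.23 ± 1.26 (SE; limma adjusted p = 0.000368). *OTC*, the next enzyme, stood at 1.35, -2.79, -2.72, -2.35 and 2.43 against 8.22, 8.23, 8.20, 7.98 and 8.31, a difference of -9.003 ± 0.83 (SE; limma adjusted p = 9.57e-05). Both were highest in the 10 and 42 dpp kidneys. *ARG1*, the liver arginase, differed by -8.11 ± 0.63 (SE; limma adjusted p = 4.37e-05), and *GLS2*, the liver glutaminase, by -6.79 ± 0.64 (SE; limma adjusted p = 0.000103). The mitochondrial arginase went the other way, since *ARG2* stood at 5.15, 5.09, 5.21, 4.78 and 3.45 against 2.69, 2.76, 2.74, 2.34 and 1.45, a difference of 2.34 ± 0.17 (SE; limma adjusted p = 3.78e-05). *ASL*, *SLC25A13* and *GLUD1* were not called, at -0.23, 0.63 and -0.37.

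All 7 tested bile acid genes of 15 listed were lower in the kidney (10.5% of all genes), with a median difference of -5.90. *AKR1D1*, which reduces the steroid ring, differed by -8.06 ± 0.86 (SE; limma adjusted p = 0.000191). *ABCB11*, the canalicular export pump, stood at 4.34, 4.39, 3.15, 7.68 and 3.74 in the livers, where the 22 dpp animal was far above the others, and the kidneys held 7, 0, 0, 2 and 1 reads. *NR0B2*, the feedback repressor of bile acid synthesis, differed by -6.56 ± 0.51 (SE; limma adjusted p = 4.51e-05), and *SLC27A5*, the ligase that activates bile acids, by -5.90 ± 0.36 (SE; limma adjusted p = 1.62e-05).

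Genes of gluconeogenesis and glycogen were lower in the kidney more often than higher. Of 14 tested genes of 16 listed, 1 was higher, 6 were lower and 7 were not called in the kidney. With the median at 0 none was higher and 7 were lower. Of all genes 37.3% were higher and 10.5% lower, or 17.9% and 17.3% with the median at 0. *PCK1*, which feeds the pathway, stood at 9.01, 7.29, 8.51, 9.48 and 5.77 against 8.23, 8.95, 7.47, 9.76 and 8.15, and *FBP1* at 10.15, 10.34, 10.13, 9.10 and 8.88 against 9.44, 9.10, 8.94, 9.51 and 9.85. *G6PC*, the last step, stood at 6.82, 5.51, 8.21, 8.38 and 5.42 against 7.75, 7.47, 6.94, 7.92 and 8.20. None of the 3 was called and all overlapped, and the 42 dpp kidney was the lowest kidney for each. The regulator and store of liver glucose differed instead, with the regulator *GCKR* at -9.05 ± 0.84 (SE; limma adjusted p = 0.000101) and liver glycogen phosphorylase *PYGL* at -6.32 ± 0.35 (SE; limma adjusted p = 1.22e-05). *GYS2*, liver glycogen synthase, differed by -5.77 ± 0.48 (SE; limma adjusted p = 6.23e-05). *KHK*, the fructose kinase, was the gene called higher in the kidney, at 1.62 on the deposited scale and uncalled at 0.89 with the median at 0.

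Amino acid breakdown was mostly on the liver side, with 14 of the 20 genes tested of 22 listed lower and 3 higher in the kidney, or 15 and 1 with the median at 0. Of all genes 10.5% were lower and 37.3% higher, or 17.3% and 17.9% with the median at 0. *TAT* and *TDO2*, which start tyrosine and tryptophan breakdown, differed by -8.81 ± 0.82 (SE; limma adjusted p = 9.79e-05) and by -7.56 ± 0.51 (SE; limma adjusted p = 2.45e-05). *HAL*, the histidine lyase, differed by -8.66 ± 0.64 (SE; limma adjusted p = 3.67e-05), and *SDS*, the serine dehydratase, by -5.53 ± 0.60 (SE; limma adjusted p = 0.000197). *DAO*, the D-amino acid oxidase of the proximal tubule, went the other way on both scales, at 7.49, 7.25, 7.53, 7.01 and 6.62 against 3.33, 2.78, 3.04, 2.19 and 1.71, a difference of 4.57 ± 0.19 (SE; limma adjusted p = 5.73e-06). *AGXT*, which removes glyoxylate, and the D-aspartate oxidase *DDO* were called higher on the deposited scale, at 1.54 and 1.18, and not with the median at 0, at 0.80 and 0.45. The call of *DDO* was also lost without the 15 or the 10 dpp animal, at 0.97 or 0.93.

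Of 10 genes tested of 13 listed for fatty acid oxidation and ketogenesis, 2 were called higher in the kidney and 1 lower. The shares of all genes were 37.3% and 10.5%. With the median at 0, 2 were higher and 3 lower, against 17.9% and 17.3% of all genes. *OXCT1*, the enzyme that commits ketone bodies to breakdown, stood at 7.56, 7.69, 7.31, 6.75 and 6.77 against 5.96, 5.36, 6.04, 3.52 and 3.50, a difference of 2.34 ± 0.35 (SE; limma adjusted p = 0.000911). *BDH1*, which interconverts them, stood at 7.37, 7.11, 7.08, 7.32 and 7.54 against 5.45, 4.90, 5.65, 4.90 and 4.91, a difference of 2.12 ± 0.22 (SE; limma adjusted p = 0.000183). The tissues did not overlap for either gene, and the livers of 22 and 42 dpp were lowest for *OXCT1*.

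Galactose genes, which the study followed in liver, gave different answers on the 2 scales. On the deposited scale 3 of 9 were higher and 2 lower, and with the median at 0 none was higher and 4 were lower. The share higher on the deposited scale is close to that of all genes, 37.3%, and 10.5% of all genes were lower, or 17.3% with the median at 0. *GALK1*, galactokinase, stood at 5.55, 5.66, 5.54, 3.82 and 5.38 against 8.27, 7.90, 7.80, 7.26 and 8.53 and was lower on both, by -2.76 ± 0.24 (SE; limma adjusted p = 7.26e-05) on the deposited scale. The phosphoglucomutase *PGM1* was lower on both as well, at -1.60 and -2.34. *GALK2*, *GLB1* and *GALM* were higher on the deposited scale, at 1.38, 1.37 and 1.20, and uncalled with the median at 0, at 0.64, 0.63 and 0.46. *GALT*, the uridylyltransferase, and *UGP2* were uncalled at -0.53 and -0.61, and lower with the median at 0, at -1.26 and -1.34. *GLB1L* changed sign, at 0.19 and -0.55, called on neither. *GLB1* also lost its call without the 22 dpp animal, at 0.97.

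Products passed between the organs fell on both sides. Of 25 listed genes 17 were matched and 16 tested, with 5 higher (4 with the median at 0) and 9 lower in the kidney. Of all genes 37.3% were higher and 10.5% lower, or 17.9% and 17.3% with the median at 0. The share higher is no larger than that of all genes on the deposited scale, and above it with the median at 0. *AGT*, angiotensinogen, stood at 6.32, 5.68, 6.09, 5.81 and 5.74 in the kidneys against 10.92, 11.11, 10.68, 11.38 and 11.04 in the livers, a difference of -5.10 ± 0.23 (SE; limma adjusted p = 6.58e-06). *AGTR1*, a receptor of angiotensin, was higher in the liver, at 2.76, 1.06, 2.45, 4.03 and 2.52 against 6.03, 6.03, 5.64, 6.27 and 5.84, a difference of -3.40 ± 0.37 (SE; limma adjusted p = 0.000197). *KL*, encoding klotho, the co-receptor through which FGF23 acts on the tubule, stood at 6.67, 7.21, 7.11, 8.09 and 6.66 in the kidneys with 5, 0, 2, 3 and 0 reads in the livers, a difference of 10.33 ± 0.45 (SE; limma adjusted p = 6.23e-06). *VDR*, the vitamin D receptor, stood at 3.37, 2.76, 2.71, 5.28 and 3.30 with the 22 dpp kidney apart, against 4, 0, 1, 10 and 1 reads in the livers, a difference of 6.56 ± 0.26 (SE; limma adjusted p = 4.98e-06). *FGF23* itself had no read in a kidney and 1, 0, 0, 2 and 0 reads in the livers.

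*EPO*, the hormone that drives red cell formation, comes from the fetal liver and later from the kidney in placental mammals. In these animals every liver held reads, 81, 59, 20, 93 and 23, and stood at 1.81, 1.38, 0.60, 1.64 and 1.65. The kidneys held 0, 0, 0, 3 and 0 reads, and no unpaired kidney held one, up to 62 dpp. The pooled level was 62.7-fold higher in the liver (95% interval 21.2 to 306). *EPOR*, its receptor, stood at 1.62, -1.05, -1.13, -0.63 and -1.53 in the kidneys against 6.08, 5.52, 6.15, 3.89 and 2.55 in the livers. *THPO*, which drives platelet formation, overlapped between tissues and was lower in the kidney, at -1.35 ± 0.34 (SE; limma adjusted p = 0.0104), a call that was lost without the 10 and 42 dpp animals, at -1.27.

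The insulin-like growth factor genes were split as well. *IGF1* was higher in the kidney, at 6.58, 5.85, 5.56, 7.83 and 5.71 against 2.18, 2.70, 2.004, 3.91 and 2.55, a difference of 3.64 ± 0.24 (SE; limma adjusted p = 2.36e-05). *IGF2*, the growth factor of fetal life, was higher in the liver, at 8.10, 7.55, 7.59, 8.89 and 8.87 against 9.78, 9.63, 9.59, 10.99 and 10.46, a difference of -1.89 ± 0.18 (SE; limma adjusted p = 0.00011). The non-coding RNA *H19* (LOC118853838), its imprinted neighbour in other mammals, was higher in the liver too, at 8.51, 7.77, 8.52, 7.33 and 9.10 against 11.60, 11.21, 11.04, 10.40 and 11.93, a difference of -2.99 ± 0.20 (SE; limma adjusted p = 2.38e-05). The tissues did not overlap for these 3 genes. *IGF2R*, the receptor that clears IGF2, was called higher on the deposited scale at 1.17 and uncalled at 0.44 with the median at 0. *IGFBP1*, a binding protein secreted by liver, differed by -7.16 ± 0.37 (SE; limma adjusted p = 9.27e-06). *TFR2*, the liver's sensor of iron-loaded transferrin, differed by -4.41 ± 0.48 (SE; limma adjusted p = 0.000204) and the iron exporter *SLC40A1* by -1.78 ± 0.25 (SE; limma adjusted p = 0.000727). Creatine synthesis, begun by *GATM* in kidney and finished by *GAMT* in liver in other mammals, gave no call, at 0.97 ± 0.41 (SE; limma adjusted p = 0.0709) for *GATM* and 0.91 ± 0.23 (SE; limma adjusted p = 0.00994) for *GAMT*. Both passed the threshold when the 14 dpp or the 42 dpp animal was left out, *GATM* at 1.23 or 1.24 and *GAMT* at 1.003 or 1.04.

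**Figure D5:**
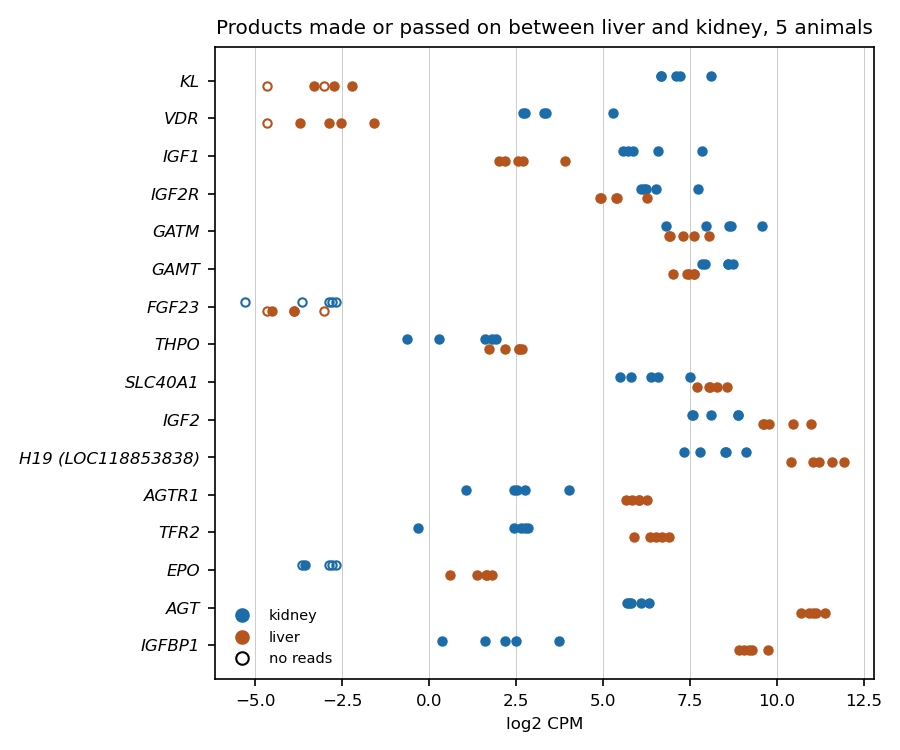
Level (x axis, log2 CPM) of 16 genes whose products are made in or passed on between liver and kidney, with 1 point for each of 5 kidneys (blue) and 5 livers (brown) and open points for libraries without a read. *KL*, *VDR* and *IGF1* lie apart on the kidney side, and *AGT*, *IGFBP1* and *EPO* on the liver side.

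Red cell genes were on the liver side. Of 27 tested genes of 32 listed for red cell precursors, 24 were lower in the kidney against 10.5% of all genes, with a median difference of -4.64. With the median at 0, 26 were lower, against 17.3% of all genes. *KLF1*, the master factor of red cell genes, had 11, 0, 0, 0 and 0 reads in the kidneys and stood at 6.18, 5.52, 6.27, 4.08 and 2.98 in the livers, a difference of -7.74 ± 0.59 (SE; limma adjusted p = 4.11e-05). *HEMGN*, a nuclear regulator of red cell precursors, stood at 2.83, 0.95, 1.28, 0.37 and -0.94 against 9.47, 9.52, 9.80, 8.55 and 5.86, and *RHAG*, of the Rh complex in the red cell membrane, had 7, 0, 1, 17 and 0 reads against levels of 6.58, 6.62, 6.66, 5.59 and 2.62. *TRIM58*, which remodels the maturing red cell, was 752-fold higher in the liver (95% interval 257 to 3649). The 42 dpp liver was the lowest liver for these 4 genes. *SLC25A38*, *UROD* and *DMTN* were not called, at -0.98, -1.06 and 0.44.

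All 6 tested globin genes of 8 listed were lower in the kidney (10.5% of all genes). In the unpaired fit of all pouch young kidneys and livers with the kit as a covariate, 4 of the 6 lost their call. These were LOC118837956 at -1.59, LOC118831015 at -1.82, LOC118831853 at -1.69 and LOC118838241 at -1.37. That fit had no term for age, and the livers it added came from animals of 7 to 109 dpp where an age is given. The adult beta-like globin (LOC118837956) stood at 12.59, 13.60, 12.19, 9.36 and 11.34 against 15.88, 16.09, 16.39, 13.22 and 13.96, a difference of -3.29 ± 0.30 (SE; limma adjusted p = 8.77e-05), and the tissues overlapped because the 22 dpp liver lay below the 14 dpp kidney. It was read in every kidney, unpaired ones included, at 12.63, 11.29 and 10.40. The neighbouring alpha globins on chromosome 9 were read unevenly among the kidneys. LOC118831767 stood at 9.74, 10.60, 10.34, 7.17 and 6.89 in the livers and had 40, 0, 0, 7 and 38 reads in the kidneys, and LOC118831763 stood at 6.79, 9.07, 6.77, 6.76 and 2.71 and had 540, 0, 0, 24 and 41 reads. An alpha-like globin of the same group (LOC118831015) was read in all 10 libraries, at 5.02, 5.78, 5.35, 2.17 and 3.33 against 9.76, 9.28, 10.01, 6.51 and 7.19. The call of LOC118831763, at -5.99 ± 1.76 (SE; limma adjusted p = 0.0191), was lost when the 22, the 14 or the 15 dpp animal was left out, at -5.65, -4.52 and -5.07. The study counted uniquely mapped reads, which near-identical copies can lose or share unevenly, so levels of single alpha globins are uncertain. The embryonic zeta globins LOC118831117 and LOC118831092 were too low to test, with 0 and 2 reads over the kidneys against 195 and 678 over the livers. The fetal beta-like (LOC118831853) and epsilon (LOC118838241) globins differed by -3.81 ± 0.34 (SE; limma adjusted p = 8.23e-05) and by -3.28 ± 0.65 (SE; limma adjusted p = 0.0035).

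Cell division genes were mostly not called on the deposited scale, where 4 of 30 cell division genes were lower in the kidney, close to the 10.5% of all genes, and none was higher. With the median at 0, 22 were lower (17.3% of all genes), and for all 30 the tissues overlapped. *RRM2*, of nucleotide supply, stood at 5.91, 5.26, 5.76, 4.05 and 4.03 against 7.82, 8.16, 8.07, 5.76 and 5.21, a difference of -2.004 ± 0.27 (SE; limma adjusted p = 0.000569). *CCNA2*, *CCNB1* and *TPX2* were the other genes called, at -1.38, -1.16 and -1.10, and *TPX2* lost its call without the 14 or the 15 dpp animal, at -0.93 or -0.92. The proliferation marker *MKI67* stood at 7.93, 8.005, 7.77, 7.24 and 7.78 against 8.95, 8.80, 8.85, 7.79 and 6.87. In both tissues the 42 dpp animal was lowest for *CCNB1*, at 5.32, 4.75, 5.34, 4.66 and 3.23 in the kidneys and 6.58, 6.29, 6.61, 5.31 and 4.31 in the livers.

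Other cell types were unequally represented. Of 11 tested white blood cell markers 10 were lower in the kidney (10.5% of all genes), with a median difference of -1.99, among them the macrophage receptor *CSF1R* at -3.78 ± 0.37 (SE; limma adjusted p = 0.000127). Their summed level was 78.2 to 114.9 CPM in the kidneys and 286.0 to 436.2 in the livers. Of 7 endothelial markers, 1 was called higher in the kidney, a smaller share than the 37.3% of all genes. It was *EMCN*, at 1.89 ± 0.23 (SE; limma adjusted p = 0.000372). The summed endothelial level was 140.3 to 496.8 in the kidneys and 145.4 to 288.0 in the livers. Of 4 megakaryocyte markers, *GP9* and *ITGA2B* were lower in the kidney (10.5% of all genes). *VWF*, also made by endothelium, was higher (37.3% of all genes) by 1.33 ± 0.25 (SE; limma adjusted p = 0.0026) and uncalled with the median at 0. On that scale 3 of the 4 were lower, against 17.3% of all genes. The pancreatic genes *INS*, *GCG*, *CEL* and *PTF1A* and the intestinal gene *CDX1* had no read in any of the 10 libraries. *CELA3B*, listed as pancreatic, was read in every library, at 7.81, 7.29, 7.74, 7.81 and 6.87 in the kidneys and 6.79, 6.75, 6.90, 6.60 and 6.20 in the livers. Of the 2 skeletal muscle markers tested, *TNNT3*, listed as a muscle troponin, was lower in the kidney by -6.94 ± 0.46 (SE; limma adjusted p = 2.33e-05). The other was called higher in the kidney on both scales, at 2.01 on the deposited scale, with overlapping tissues. The muscle creatine kinase *CKM* had 0 reads over the kidneys and 3 over the livers. Summed levels were 15.3 to 58.5 in the kidneys and 48.0 to 85.5 in the livers for adipose markers, and 1.98 to 4.40 and 3.32 to 10.6 for gonad markers.

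The cytochrome P450 and lipocalin genes that the study followed were scarce in both tissues. None of the 10 P450 genes passed the filter, and 3 had no read in any kidney. The best read was LOC118830249, with 0, 0, 0, 8 and 0 reads in the kidneys and 133, 158, 58, 465 and 1 in the livers, and LOC118833859 followed with 29, 0, 0, 153 and 2 and 9, 11, 2, 438 and 3. The urinary lipocalin *vulpeculin* (LOC118842298) had no read in a kidney and 1, 2, 3, 4 and 1 reads in the livers. Its relative *ganderin* (LOC118843263) had no read in a kidney and 0, 0, 1, 1 and 0 reads in the livers.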

How the data were processed

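RNA was sequenced from kidney and liver as poly(A)-enriched, strand-specific single-end libraries. Per the labels and the study's methods, the authors trimmed reads with Trim Galore 0.6.7, mapped them to the possum genome with HISAT2 2.2.1, and counted uniquely mapped reads over genes in SeqMonk. The authors deposited 1 table of 23816 gene rows whose values are called RPKM (log2). The deposited log2 values were found to be corrected for the library total but not for gene length, and are written here as log2 CPM. A gene without reads had been written as 0.9 read, and each low value came out as a whole number of reads within 0.01, so that reads and depth were recovered. The table gives reads on genes of 4424210 to 31393983 in the kidneys and 6802311 to 28076869 in the livers, so that a single read weighs most in the shallowest libraries.

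Groups came from the sample labels, and tissues were paired by the animal in the title. The labels count separate animals, so p-values measure the spread between animals. Genes at 0 or above in at least 5 of the 10 libraries were tested with limma 3.58.1 in R 4.3.3, with the animal as a block and two-sided p-values adjusted by Benjamini-Hochberg. Kidney and liver of an animal deviated together from their tissue means, with correlations across genes of 0.344, 0.277, 0.388, 0.757 and 0.417 at 10, 14, 15, 22 and 42 dpp, each above the correlation with any other liver. The fit was tested on simulated reads of the 14208 genes in this comparison. Of the 200 genes given a change, 199 were found, and 10 others were called. In the data themselves 6794 genes were called. How often a difference near the threshold of 1, or in a gene that varied widely between kidneys, would be found was not tested. Pooled folds used the exact binomial method at 95%, and such intervals and the floor of 3 reads cover counting error only. Python 3.11.15, pandas 2.3.3, SciPy 1.17.1 and matplotlib 3.10.9 were used.

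The animals, gene lists and rules were chosen with earlier results of these data known. Named were the 10 genes with the largest difference in each direction whose tissues did not overlap. Of each list, the 4 members with the largest difference in its main direction were named, with any member called the other way. Every galactose, globin, P450, lipocalin and liver-kidney product gene was named as well, HOX genes by paralogue group, and markers where called or at 0. A few genes that these rules name are not reported here. Other genes in the text were chosen after their values were seen. List members were matched by symbol, or by annotated product name where a single gene bore it, and a member without a match was counted as such. Alternatives changed the scale, the filter, the floor, the test, the block, the kit and the animals included. The libraries of 2 animals with conflicting labels were not used here. The kidney of the animal whose liver had been removed entered only as an unpaired kidney. No sequences were used.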

Additional observations from a re-analysis of the deposited data

Results flagged for a closer look

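In each group of 5 libraries the highest and lowest values were compared with the rest by Dixon's criterion, for the named genes and the depth. Of 242 groups, 13 (5.37%) held a value past the critical ratio of 0.71, and chance alone marks about 1 group in 20. Values are in log2 CPM unless reads are named.

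At 22 dpp the kidney was the deepest of the 5, with 31393983 reads on genes against 9621968 in the next. It stood apart as the highest for the vitamin D receptor *VDR*, at 5.28 against 3.37 in the next kidney, and for *IGF2R*, at 7.73 against 6.53, and as the lowest for *GALK1*, at 3.82 against 5.39. The liver of the same animal was the highest for the bile salt pump *ABCB11*, at 7.68 against 4.39, for *ONECUT1*, at 5.43 against 3.74, and for the P450 gene LOC118833859, at 3.88 against -1.05. This animal was the one whose libraries were made with the NEXTFLEX kit, and the part of the kit, the age and the animal cannot be told apart.

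At 42 dpp the kidney was the lowest for *ARG2*, at 3.45 against 4.79 in the next. The liver of that animal was the lowest for the red cell gene *RHAG*, at 2.62 against 5.59, for *TPX2*, at 3.83 against 5.71, and for the P450 gene LOC118830249, at -2.88 against 2.13, which there rested on 1 read. It was the highest liver for *SLC13A3*, at -0.29 against -3.31, on 6 reads. At 14 dpp the kidney was the lowest for *TFR2*, at -0.31 against 2.43, on 5 reads.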

How the results depend on the processing

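The scale moved the counts most. With the 75th percentile made equal, 2848 genes were higher and 2226 lower in the kidney and the median difference was 0.115. With each library shifted to bring the median difference to 0, the counts were 2548 and 2451 and the median over genes was -0.012. Of the 130 tested genes named by rule, each of these scales changed the call of 9, beside those of other genes given in the text, and *GLB1L* changed sign, at -0.42 and -0.55, called on none. The fit without the animal as a block, against the pairing used, gave 4893 higher and 1340 lower, and *DDO*, LOC118838241, *CCNB1* and *TPX2* lost their calls.

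Leaving out 1 animal at a time gave 5157 to 5490 higher, 1372 to 1608 lower and medians of 0.672 to 0.769. The genes with every kidney above every liver then numbered 4633 to 5978, and the genes with every liver above every kidney 1092 to 1360. Values below 0 set to 0, log2(CPM + 0.1), no filter on low values, a trend in the variance and a test of the recovered reads (voom) changed no call of a gene named by rule, and without the filter 7193 and 1865 of 19730 genes were called. Adding the other pouch young kidneys and livers, with the kit as a covariate, no pairing and no term for age, gave 6703 and 1431 with a median of 0.939. There *DDO*, *CCNB1*, *TPX2* and 4 globins (LOC118831853, LOC118831015, LOC118838241 and LOC118837956) lost their calls and *GAMT* gained one.

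Further alternatives were chosen after seeing the data. Without the shallow 41 dpp kidney the last fit gave 6984 and 1312 with a median of 0.997, and *RRM2* lost its call as well, while *GATM* gained one. Without the 10 and 42 dpp animals 5037 and 1523 were called, with 4737 and 1344 among those called before. *THPO* and *TPX2* then lost their calls and *GAMT* gained one. The number of animals limits small differences, and depth limits genes under a few reads.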
